A study of Drosophila melanogaster with 8 samples.

Results

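The genes that encode the proteins of the cytosolic ribosome, with their duplicated copies, were followed in macrophages of Drosophila melanogaster larvae on 2 diets. Members were all genes of the deposited count table whose FlyBase identifier maps to a symbol that starts with RpL or RpS and goes on with a digit or the letter P, together with sta, which encodes RpSA, and sop, an older name under which the table now gives RpS2. The rule found 88 of 11769 genes, 50 for the large subunit and 38 for the small. Of these, 79 were core genes, the only or the more abundant gene for their protein. Another 7 were minor copies, named by an a or b letter (RpL34a, RpS5b, RpS10a, RpS14b, RpS15Ab, RpS19b and RpS28a), and 2 were genes with "like" in their name (RpL24-like and RpLP0-like). A control diet (CD) of sucrose-yeast food was compared with a high-sugar diet (HSD), the same food supplemented with 10x sucrose. The animals were larvae of the third instar, kept at 25 °C and bled 96 h after egg laying, with 5 larvae to a collection. For every replicate, 20000 cells positive for GFP were sorted. Both diet groups carried hmlΔ>2xeGFP and were otherwise given as wild-type. This reporter is driven by the promoter of Hemolectin (Hml), so blood cells in which that promoter is silent were not collected. Poly(A) RNA was sequenced from 4 libraries per diet, CD replicates 1, 3, 4 and 5 and HSD replicates 1, 2, 3 and 4.

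Each ribosome joins a small subunit, which holds the mRNA and reads its codons, to a large subunit, which forms peptide bonds and lets the growing chain out through a tunnel. The ribosomal proteins are made in matched amounts from genes that lie scattered over the genome, and their mRNAs belong to the most abundant and the shortest in a cell. Fruit flies are known for the Minute mutants, in which loss of a single copy of many of these genes slows growth. Several of the genes have a duplicate that is used mainly in the germline.

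Summed gene counts ran from 20817891 to 24733521 per library. Levels are given below in CPM, a gene's counts relative to the size of its library. That size was first scaled by TMM, a factor that sets the bulk of genes level between libraries. Values are always in the order of the replicate numbers. Fold changes, standard errors and adjusted p-values come from edgeR's quasi-likelihood test across 7844 genes with Benjamini-Hochberg adjustment and a threshold of 0.05. Markers of the labelled cell type were abundant. The 9 plasmatocyte markers (plasmatocytes are the fly's macrophages) summed to 73370 to 89067 CPM of the unscaled library size on CD and to 97579 to 111408 on HSD, and 7 of the 9 were higher on HSD. The 5 crystal cell markers, 4 of which were higher, summed to 24427 to 29087 CPM on CD and 27559 to 41607 on HSD, with HSD replicate 4 inside the range of the CD libraries. The 3 lamellocyte markers, all higher, summed to 9.85 to 13.1 CPM on CD and 17.9 to 31.0 on HSD. The 2 lymph gland progenitor markers summed to 482 to 626 CPM on CD and 851 to 941 on HSD. Of these, Tep4 rose 1.79-fold (adjusted p = 1.94e-06) and dome did not pass. Of all genes tested, 14.4% were higher and 11.6% lower on HSD. Fat body and muscle markers stayed at 76.5 CPM or less in sum, and germline markers, 6 of 7 of which were measured, summed to 28.1 to 35.8 CPM with 0 higher and 1 lower (at unadjusted p, edgeR gave 2 higher and 1 lower, and DESeq2 and limma-voom each called 1 higher). In bulk samples, more cells of a type and more RNA per cell cannot be told apart. The part of these marker differences in the results below was not tested.

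Most of the ribosomal protein genes were modestly higher on the high-sugar diet. Of 85 members with enough counts to test, 81 were higher on HSD (95.3%), against 14.4% of all genes tested. None was lower, against 11.6% of all genes, and none was lower at unadjusted p or with DESeq2 or limma-voom. The median log2 fold change of the tested members was 0.31, or 1.24-fold, with a range of 0.11 to 0.49 and an SD over members of 0.062, while the median over all genes was -0.0050. Between 1.2-fold and 1.3-fold lay 56 of the 85 members, and 6 lay above 1.3-fold. A test against a change of 1.1-fold, in place of no change, called 61 members higher, against 10.4% of all genes. In 72 members every HSD library stood above every CD library in TMM-scaled CPM, against 15.1% of all genes tested. Statements below on overlap of the diets in single genes also refer to TMM-scaled CPM. Overlap of single genes was not examined without that scaling.

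Member genes together took 15.7, 14.4, 14.2 and 15.1% of all counts in the CD libraries and 15.5, 16.0, 16.8 and 17.2% in the HSD libraries. CD replicate 1 lay above HSD replicate 1, so the diets overlapped in this unscaled share, whose mean was 14.9 ± 0.696% on CD and 16.4 ± 0.784% on HSD (SD, n = 4). As a share of the TMM-scaled library size, the sum was 13.3 to 15.5% on CD and 16.4 to 18.3% on HSD, and the diets did not overlap. The scaling matters to the count of calls. TMM factors were 1.01 to 1.08 in the CD libraries and 0.934 to 0.957 in the HSD libraries, and when libraries were scaled by their size alone the median of all genes moved from -0.0050 to -0.17. Under that scaling 45 members were higher, against 8.80% of all genes, and none was lower, against 40.3% of all genes. Of the members, 83 of 85 had a positive log2 fold change (RpS3A and RpS15Ab turned to -0.02 and -0.06), and the members' median lay 0.316 above that of all genes, against 0.313 with TMM. Of the members named below, RpL3, RpL4, RpL5, RpL7, RpL8, RpL10, RpL11, RpL19, RpL21, RpL26, RpL34a, RpL34b, RpL39, RpL41, RpLP0, RpLP0-like, RpS2, RpS3, RpS5a, RpS6, RpS7, RpS9, RpS19a and RpS29 were called with TMM and not with library size alone.

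**Figure D1:**
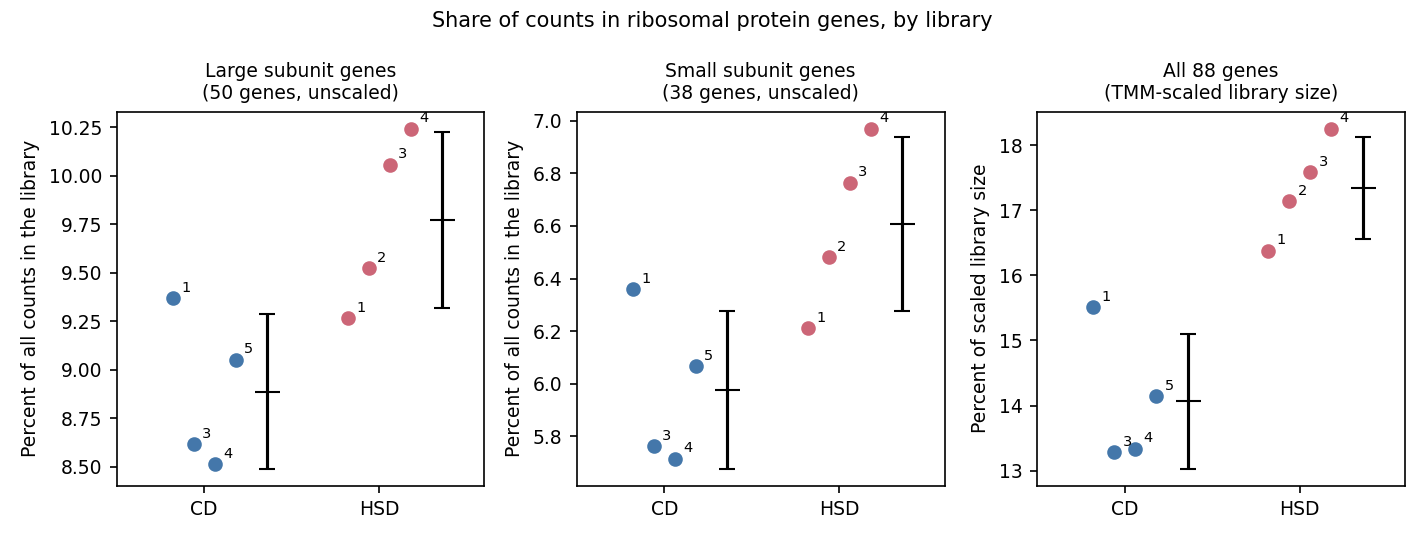
Share of counts taken by the 50 large subunit genes (left), the 38 small subunit genes (centre) and all 88 genes (right), in percent of all counts of a library or, at the right, of the TMM-scaled library size. Each point is a library marked with its replicate number, and bars show the mean and SD of 4 libraries per diet; CD replicate 1 overlaps the HSD libraries without TMM scaling (left and centre), and the diets separate with it (right).

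Libraries differed within a diet in the level of the whole set. The median deviation of the 79 core genes from each gene's mean over the 8 libraries was -0.00081, -0.24, -0.24 and -0.14 on the log2 scale in the CD libraries and 0.07, 0.14, 0.18 and 0.23 in the HSD libraries. CD replicate 1 stood nearest to the HSD libraries, and without it 83 members were higher, against 17.7% of all genes, and the median log2 fold change was 0.38. This library also stood apart from its diet over genes of the whole table with enough counts. The chi-square per degree of freedom between 2 libraries was 123 to 128 for CD pairs that held it. Among CD replicates 3, 4 and 5 it was 7.67 to 19.9, and among HSD libraries 16.2 to 65.5. With both CD replicate 1 and HSD replicate 4 left out, 82 members were higher, against 17.9% of all genes.

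**Figure D2:**
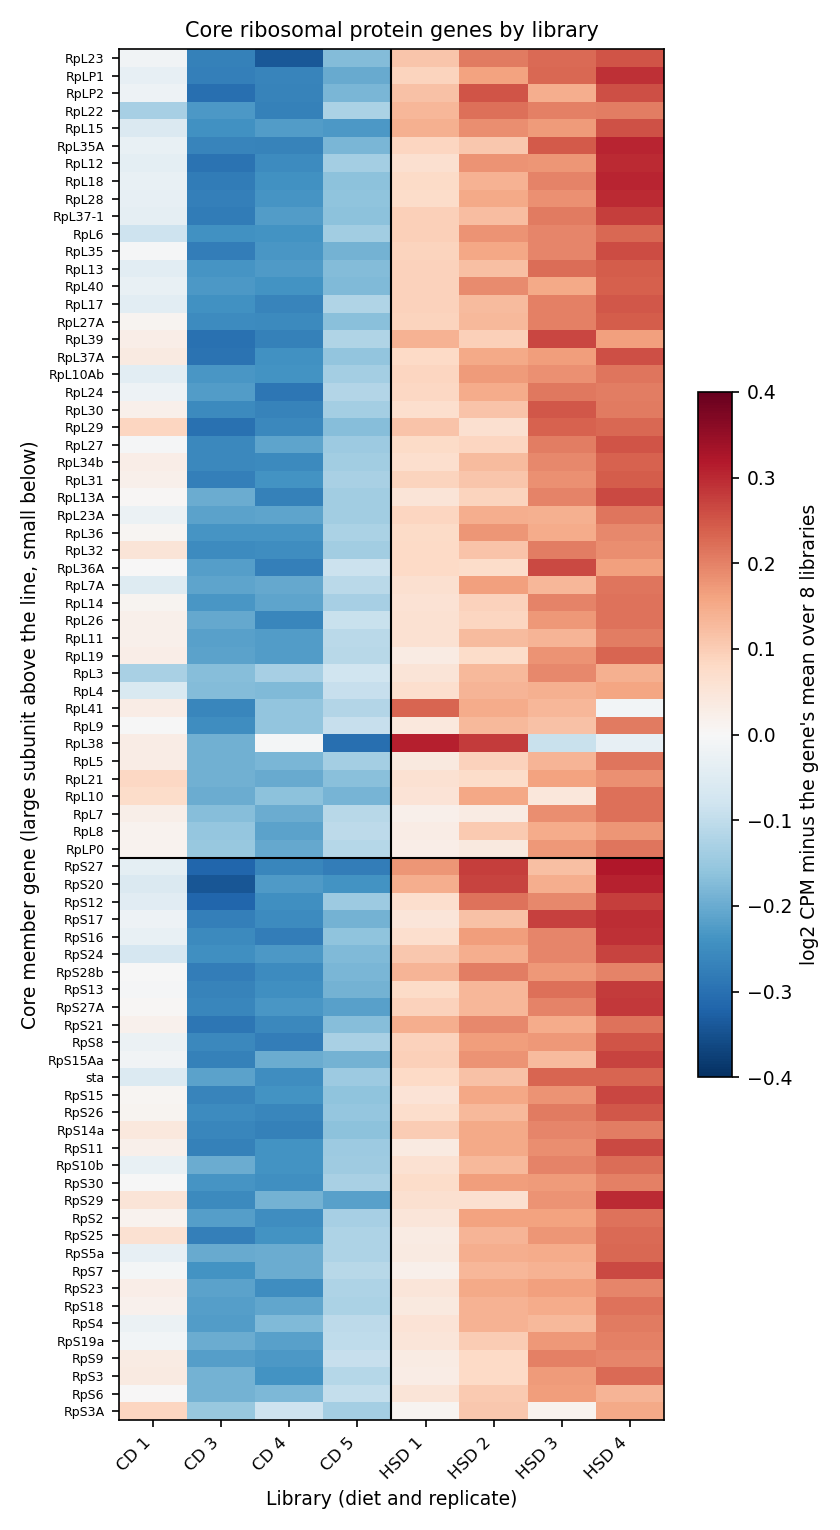
Level of 78 of the 79 core genes in each of the 8 libraries, as log2 CPM (TMM-scaled) minus the gene's mean over the libraries, with large subunit genes above the line and small subunit genes below, each sorted by log2 fold change. In most rows CD replicate 1 is the palest CD library and HSD replicates 3 and 4 are the darkest red; RpL38 and RpL41, whose residual SD was above 0.1, look different.

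In the large subunit, 49 of 50 genes were higher on HSD, with a median log2 fold change of 0.31, and RpL38 did not pass. The acidic stalk, which recruits the translation factors to the ribosome, had a median of 0.38. RpLP1 stood at 2431, 2057, 2073 and 2163 CPM in the CD libraries and at 2645, 2781, 2919 and 3049.5 CPM in the HSD libraries. All HSD libraries stood above all CD libraries, and the level rose 1.31-fold (log2 0.39 ± 0.06 SE, adjusted p = 0.000721). RpLP2 stood at 2715, 2237, 2288 and 2430.3 CPM in the CD libraries and at 2992, 3281, 3046 and 3296 CPM in the HSD libraries, again without overlap, and it rose 1.304-fold (log2 0.38 ± 0.06 SE, adjusted p = 0.00078). RpLP0, the base of the stalk to which P1 and P2 bind, rose 1.17-fold (log2 0.23 ± 0.06 SE, adjusted p = 0.0155), and the difference between the stalk genes was not tested. Its CD libraries ran from 2378 to 2768 CPM and its HSD libraries from 2792 to 3179 CPM, so the diets were separated by the narrow gap between CD replicate 1 and HSD replicate 1, and the call was lost without CD replicate 3, CD replicate 4 or HSD replicate 3 (adjusted p up to 0.0548).

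RpL23, a protein of the subunit interface, had the largest log2 fold change of the core large subunit genes. RpL23 was found at 1861, 1560.0, 1487 and 1667 CPM in the CD libraries and at 2032, 2171, 2199.7 and 2236 CPM in the HSD libraries. The diets did not overlap, with CD replicate 1 the highest of its diet, and the gene rose 1.31-fold (log2 0.39 ± 0.07 SE, adjusted p = 0.000911). RpL22, whose homologue is dispensable in mice, had the smallest p of the core genes. RpL22 stood at 1498, 1402, 1362 and 1505 CPM in the CD libraries and at 1802, 1913, 1889 and 1892 CPM in the HSD libraries. The CD libraries lay close together and all below the HSD libraries, with a log2 rise of 0.38 ± 0.05 SE (adjusted p = 0.000117). A noncoding gene on the same strand, lncRNA:CR42491, overlaps 34.3% of its exonic length. Reads of the overlap cannot be told apart by strand. RpL15 and RpL6, both rRNA-binding proteins of the large subunit, followed. RpL15 stood at 1847, 1623, 1644 and 1638 CPM in the CD libraries and at 2122, 2186, 2159.9 and 2293 CPM in the HSD libraries, and it rose 1.298-fold (log2 0.38 ± 0.05 SE, adjusted p = 0.000233). RpL6 rose 1.27-fold (log2 0.35 ± 0.05 SE, adjusted p = 0.000337), from a range of 2063 to 2307 CPM to a range of 2607 to 2862 CPM. Neither gene had overlapping diets.

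All 4 genes listed at the catalytic centre, and all 7 at the tunnel's exit, were higher on HSD. Of all tested members 95.3% were higher, and of all genes 14.4%. On scaling by library size alone, 0 of the 4 and 4 of the 7 were called higher, against 8.80% of all genes. RpL3, RpL4, RpL8 and RpL10, which reach towards the peptidyl transferase centre, had a median log2 fold change of 0.24. Those around the exit of the nascent chain, RpL17, RpL19, RpL23A, RpL26, RpL31, RpL35 and RpL39, had a median of 0.31. RpL5 and RpL11, which enter the ribosome with the 5S rRNA, had log2 fold changes of 0.24 and 0.26. RpL40, made as a fusion with ubiquitin, rose 1.26-fold (log2 0.34 ± 0.06 SE, adjusted p = 0.000972), next to RpS27A of the small subunit, the other ubiquitin fusion, at 1.27-fold (log2 0.35 ± 0.07 SE, adjusted p = 0.00189). These groups by site were drawn up after the values were known, and differences between them were not tested.

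Among the smallest rises of the called large subunit core genes were those of RpLP0, RpL8, RpL7, RpL10 and RpL21, all between 1.17-fold and 1.18-fold. RpL8 stood at 3210.3, 2856, 2742 and 2955 CPM in the CD libraries and at 3247, 3415, 3520.4 and 3597 CPM in the HSD libraries. This gene did not overlap between the diets and rose 1.17-fold (log2 0.23 ± 0.06 SE, adjusted p = 0.00985). In RpL7, RpL10 and RpL21, CD replicate 1 reached into the range of the HSD libraries. RpL10 stood at 2699, 2234, 2292 and 2258 CPM in the CD libraries and at 2666, 2855, 2651 and 2989 CPM in the HSD libraries, so that CD replicate 1 was above HSD replicates 1 and 3, and the rise was 1.18-fold (log2 0.24 ± 0.07 SE, adjusted p = 0.0214). RpL7 rose 1.17-fold (adjusted p = 0.0192) and RpL21 1.18-fold (adjusted p = 0.020998). All 3 calls were lost without CD replicate 3, 4 or 5; those of RpL7 also without HSD replicate 3 or 4, of RpL10 without HSD replicate 2 or 4 and of RpL21 without HSD replicate 3, with adjusted p up to 0.0654, 0.0756 and 0.0713.

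**Figure D3:**
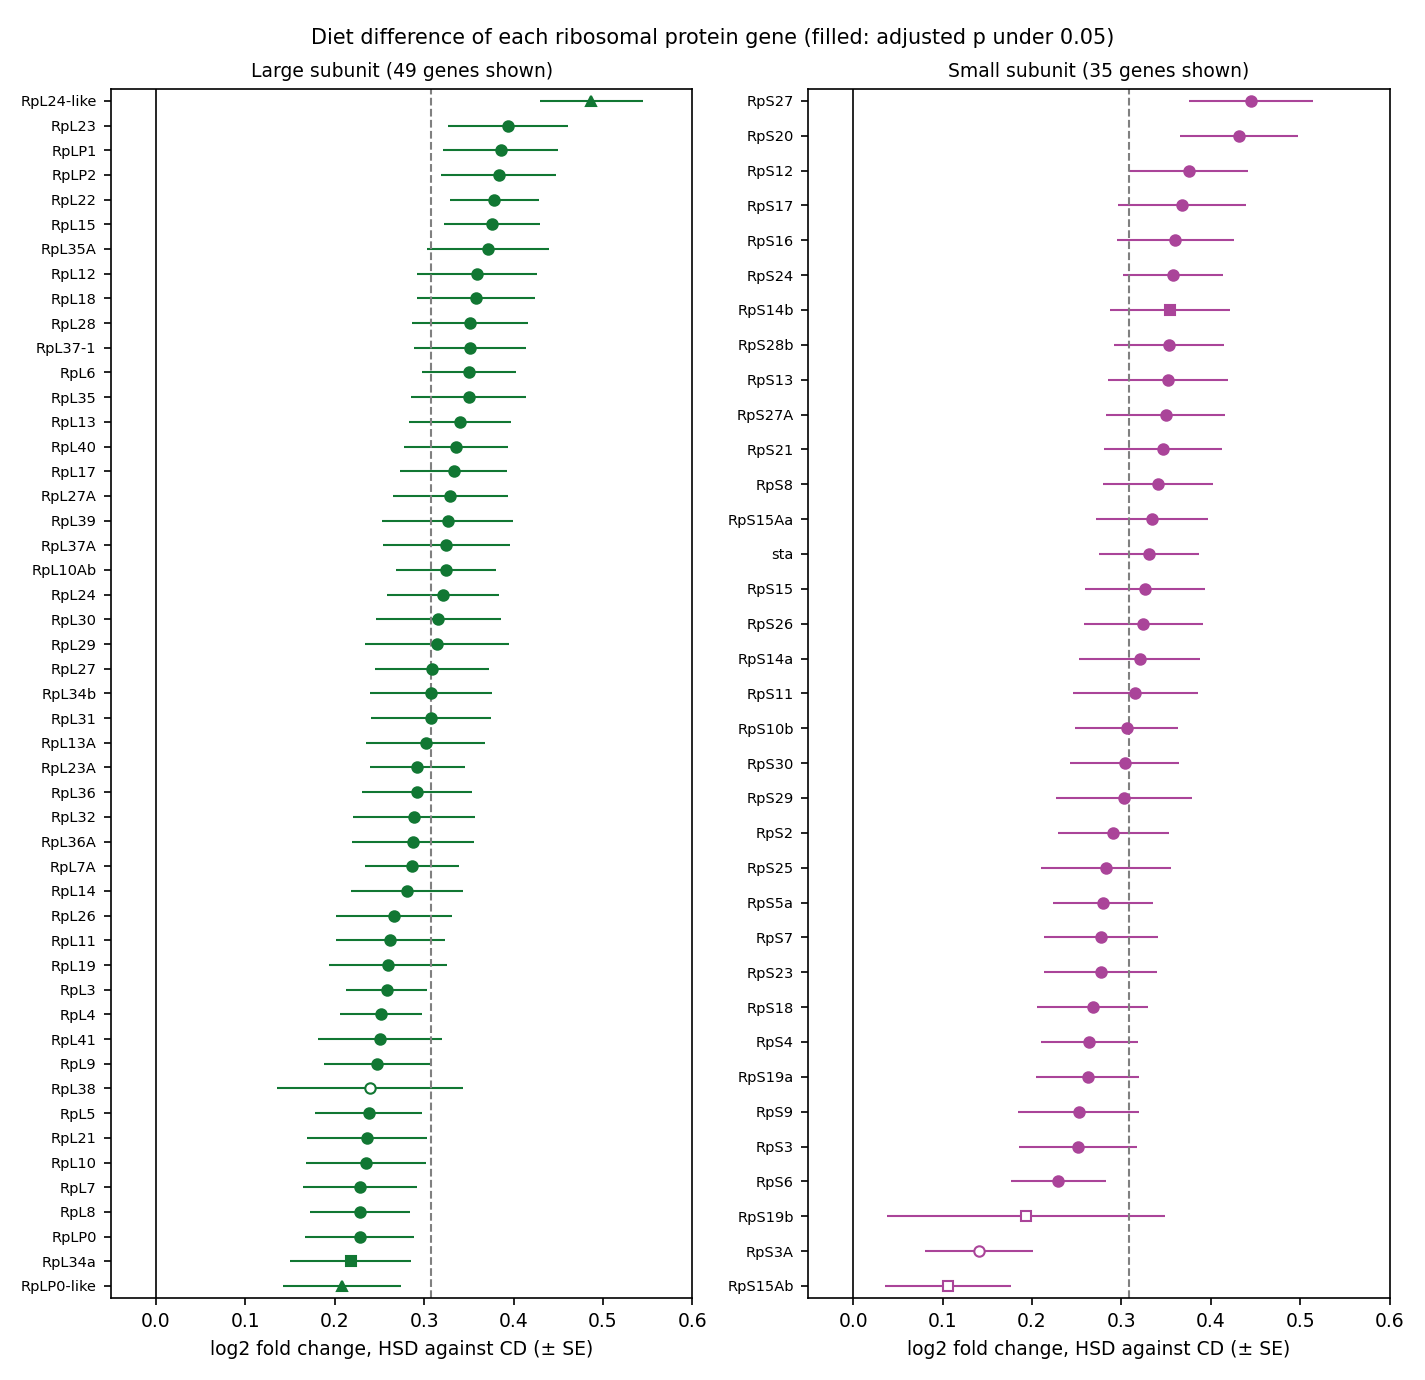
log2 fold change, HSD against CD, with its SE from edgeR on the TMM scale, for 49 of the 50 tested large subunit genes (left) and the 35 tested small subunit genes (right). Circles are core genes, squares minor copies and triangles "like" genes, filled where the adjusted p was under 0.05, and the dashed line is the members' median of 0.31; all 84 points lie to the right of 0, though RpS3A and RpS15Ab lie left of it on scaling by library size alone.

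In the small subunit, 32 of 35 tested genes were higher, with a median log2 fold change of 0.32. RpS27 and RpS20 had the largest changes of all core genes. RpS27 stood at 1234, 1016, 1057 and 1046 CPM in the CD libraries and at 1432, 1535, 1376 and 1581 CPM in the HSD libraries. Every HSD library exceeded every CD library, and RpS27, a zinc finger protein, rose 1.36-fold (log2 0.44 ± 0.07 SE, adjusted p = 0.000441). RpS20 stood at 1117, 918, 994 and 985 CPM in the CD libraries and at 1285, 1402, 1285 and 1439.6 CPM in the HSD libraries, also without overlap. RpS20, a protein of the subunit's head, rose 1.35-fold (log2 0.43 ± 0.07 SE, adjusted p = 0.000394). RpS24, with a range of 1224 to 1384 CPM on CD and 1563 to 1749.7 CPM on HSD, rose 1.28-fold (log2 0.36 ± 0.06 SE, adjusted p = 0.000455).

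Of 8 genes listed for proteins along the path of the mRNA, 7 were higher, beside 95.3% of all tested members and 14.4% of all genes. RpS2, RpS3 and RpS30 at the entry of the channel had a median log2 fold change of 0.29, and RpS14a, RpS14b, RpS26, RpS28b and RpS3A at its exit 0.32, where RpS3A, described below, did not pass. RpS2 stood at 3049, 2594, 2546 and 2754 CPM in the CD libraries and at 3123, 3376, 3379 and 3511 CPM in the HSD libraries. It rose 1.22-fold (log2 0.29 ± 0.06 SE, adjusted p = 0.00394), and the gap between the diets was small, since CD replicate 1 came close to HSD replicate 1. sta stood at 3755, 3359, 3284 and 3521 CPM in the CD libraries and at 4123, 4226, 4578 and 4582 CPM in the HSD libraries. No CD library reached the HSD range for sta, whose product RpSA joins the small subunit late and is also known as the laminin receptor, and it rose 1.26-fold (log2 0.33 ± 0.06 SE, adjusted p = 0.000809). RpS6, the substrate of S6 kinase whose phosphorylation follows growth signals, had the smallest rise of the called core small subunit genes. RpS6 stood at 2502, 2193, 2205 and 2339 CPM in the CD libraries and at 2590.4, 2689, 2804 and 2748 CPM in the HSD libraries. The diets were separate in RpS6 and the rise was 1.17-fold (log2 0.23 ± 0.05 SE, adjusted p = 0.006901).

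The proportion of large to small subunit counts differed between the diets by less than the spread between libraries. Large subunit genes took 8.89 ± 0.397% of all counts on CD and 9.77 ± 0.455% on HSD, and small subunit genes 5.98 ± 0.299% and 6.61 ± 0.331% (SD, n = 4). The ratio of large to small subunit counts was 1.47, 1.49, 1.49 and 1.49 in the CD libraries and 1.49, 1.47, 1.49 and 1.47 in the HSD libraries. The diets overlapped, and the mean ratio of 1.487 ± 0.00972 on CD and 1.479 ± 0.0117 on HSD differed by 0.0080, less than the SD of either diet. Among core genes alone, 46 of 47 large subunit and 31 of 32 small subunit genes were higher, with medians of 0.31 and 0.32.

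Of the 85 tested members, 4 did not pass. RpS3A, a small subunit protein near the mRNA exit and the only member on the small chromosome 4 (positions 65225 to 67207 in dm6), was the core gene that moved least. RpS3A stood at 2329, 1977, 2075 and 2000.1 CPM in the CD libraries and at 2214, 2369, 2216 and 2442 CPM in the HSD libraries. CD replicate 1 lay inside the range of the HSD libraries, and the log2 fold change was 0.14 ± 0.06 SE with an adjusted p of 0.1103. Without CD replicate 1 it was 0.20 with an adjusted p of 0.0048 in edgeR's test. RpL38, whose loss in mice disturbs the body pattern, was the most variable of the core genes. RpL38 stood at 366, 314, 357 and 291 CPM in the CD libraries and at 444, 435, 337 and 350.2 CPM in the HSD libraries. Its HSD replicates 1 and 2 were high and 3 and 4 were not, which ran against the order of the core genes' median deviation. RpL41, described below, also ran against that order. The log2 fold change of RpL38, 0.24 ± 0.10 SE, had an adjusted p of 0.117. The other two were minor copies, RpS15Ab and RpS19b, described below. limma-voom with quality weights called RpS3A and RpL38 higher as well.

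Apart from the shared shift of each library, core genes varied little. After the median deviation of the core genes was subtracted from each library, the SD within a diet had a median of 0.029 over the 79 genes on the log2 scale. It was above 0.1 in 2 genes, RpL38 at 0.22 and RpL41 at 0.12. RpL41 encodes the shortest ribosomal protein. RpL41 stood at 1176, 961, 1033 and 1062 CPM in the CD libraries and at 1353, 1276, 1264 and 1143 CPM in the HSD libraries. HSD replicate 1 was its highest library and HSD replicate 4 its lowest of that diet, below CD replicate 1, and its call (1.19-fold, adjusted p = 0.0179) was lost in the absence of CD replicate 3 or 4, or of HSD replicate 1 or 2 (adjusted p up to 0.0637).

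Duplicated genes differed widely in how far the minor copy was used. Of 14 pairs of copies listed, 9 had both genes in the table and 6 had both genes tested; RpL7-like, RpL10Aa, RpL22-like, RpL37-2 and RpS28-like were not analysed here. Per kilobase of exon, the major gene exceeded the minor by 1.68-fold for RpS14a over RpS14b, 2.28-fold for RpL34b over RpL34a, 9.08-fold for RpL24 over RpL24-like, 13.1-fold for RpS15Aa over RpS15Ab, 24.2-fold for RpLP0 over RpLP0-like and 236-fold for RpS19a over RpS19b. The remaining minor copies were at the limit of detection. RpS5b, the copy known from the germline, had 24 of the 195021 counts of its pair on CD (0.0123%, exact 95% interval 0.00789 to 0.0183%) and 30 of 214221 on HSD (0.0140%, 0.00945 to 0.0200%). RpS10a had 1 count on each diet, in CD replicate 5 and HSD replicate 1, beside 182330 and 204049 counts for the pair. RpS28a had 2 counts on CD and 0 of 122704 on HSD, which allows a share of up to 0.00301% (upper end of the exact 95% interval). These intervals cover counting error only.

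In 2 pairs, RpS15Ab with RpS15Aa and RpL24-like with RpL24, the share of the minor gene did not overlap between the diets. No ratio of a pair passed after adjustment over the 6 pairs tested, and 2 passed unadjusted; with 4 libraries against 4, an exact permutation test cannot go below p = 0.0286. RpS15Ab made up 5.99, 5.97, 5.95 and 5.96% in the CD libraries and 5.03, 5.09, 5.07 and 5.34% in the HSD libraries of the counts of the pair. The CD libraries were nearly identical, at 5.97 ± 0.0179%, and the 4 HSD libraries were all lower, at 5.14 ± 0.139% (SD, n = 4). RpS15Aa rose 1.26-fold (log2 0.33 ± 0.06 SE, adjusted p = 0.00165), while RpS15Ab, which stands on another chromosome (2R, 10821676 to 10822399) from RpS15Aa (X, 13335637 to 13337705), had a log2 fold change of 0.11 ± 0.07 SE and an adjusted p of 0.297. Without CD replicate 1, RpS15Ab was called too, at a log2 fold change of 0.17 (adjusted p = 0.0486). The log2 ratio of the minor to the major copy fell by 0.23 (exact two-sided permutation test, p = 0.0286, adjusted over 6 pairs p = 0.0857).

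RpL24-like moved the other way against RpL24. In yeast its counterpart acts in the assembly of the large subunit and is exchanged for the ribosomal protein L24. RpL24-like stood at 102, 88.4, 86.3 and 94.96 CPM in the CD libraries and at 125, 129, 130.0 and 137 CPM in the HSD libraries. It rose 1.402-fold (log2 0.49 ± 0.06 SE, adjusted p = 4.95e-05) without overlap, the largest fold change and the smallest p of all members, and RpL24 rose 1.25-fold (log2 0.32 ± 0.06 SE, adjusted p = 0.00207). CG7099, on the opposite strand, overlaps 21.6% of the exonic length of RpL24, and how strand was handled is not given. The share of RpL24-like in the pair's counts was 5.94, 5.92, 6.03 and 5.91% in the CD libraries and 6.72, 6.62, 6.41 and 6.76% in the HSD libraries. All HSD libraries were higher, and the log2 ratio was 0.17 higher on HSD (exact two-sided permutation test, p = 0.0286, adjusted p = 0.0857). RpLP0-like, the counterpart of a yeast assembly factor that holds the place of P0, showed no such shift: its share was 2.88 ± 0.0373% on CD and 2.85 ± 0.209% on HSD (SD, n = 4), with the log2 ratio lower by 0.02 (p = 0.971 in the exact permutation test). RpLP0-like itself rose 1.16-fold (log2 0.21 ± 0.07 SE, adjusted p = 0.0353), with overlapping diets, and its call was lost in the absence of CD replicate 3, 4 or 5, or of HSD replicate 1, 2 or 4 (adjusted p up to 0.106).

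Of the 6 pairs, RpS14a with RpS14b and RpL34b with RpL34a were used most evenly. RpS14a and RpS14b lie next to each other on the X chromosome (7933742 to 7934677 and 7934898 to 7935792) and encode the same protein, so their counts depend on how reads common to both were treated, which is not given in the sources used here. RpS14b made up 28.2, 28.5, 28.7 and 29.2% in the CD libraries and 28.9, 29.3, 28.6 and 29.7% in the HSD libraries. The diets overlapped, and the log2 ratio differed by 0.03 (exact permutation test, p = 0.2, adjusted p = 0.3). Each copy rose on its own, RpS14a 1.25-fold (log2 0.32 ± 0.07 SE, adjusted p = 0.00361) and RpS14b 1.28-fold (log2 0.35 ± 0.07 SE, adjusted p = 0.00182). RpL34a made up 22.8, 23.1, 24.1 and 23.2% in the CD libraries and 21.996, 22.4, 21.4 and 22.9% in the HSD libraries. All but HSD replicate 4 lay below the lowest CD library, and the log2 ratio was lower by 0.09 (exact permutation test, p = 0.0571, adjusted p = 0.114). RpL34a rose 1.16-fold (log2 0.22 ± 0.07 SE, adjusted p = 0.0313) and RpL34b 1.24-fold (log2 0.31 ± 0.07 SE, adjusted p = 0.00504), and the call for RpL34a was lost in the absence of CD replicate 3, 4 or 5, or of HSD replicate 2, 3 or 4 (adjusted p up to 0.109).

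RpS19b, the copy best known from the ovary, was scarce here. RpS19b stood at 5.16, 4.63, 4.41 and 4.32 CPM in the CD libraries and at 6.28, 3.79, 5.15 and 5.95 CPM in the HSD libraries, so the diets overlapped, and its log2 fold change was 0.19 ± 0.16 SE with an adjusted p of 0.4004. It held 0.231 ± 0.0135% of the pair's counts on CD and 0.220 ± 0.0483% on HSD (SD, n = 4; exact permutation test, p = 0.657, adjusted p = 0.789). RpS19a rose 1.199-fold (log2 0.26 ± 0.06 SE, adjusted p = 0.00479). In the 3 pairs whose minor copy was too scarce to test, the major genes rose in the same range, RpS5a 1.21-fold, RpS10b 1.24-fold and RpS28b 1.28-fold, with adjusted p of 0.00275, 0.00169 and 0.00102. The genes of the pairs that lack a partner here were also called, RpL10Ab at 1.25-fold and RpL37-1 at 1.28-fold, with adjusted p of 0.000918 and 0.001199.

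**Figure D4:**
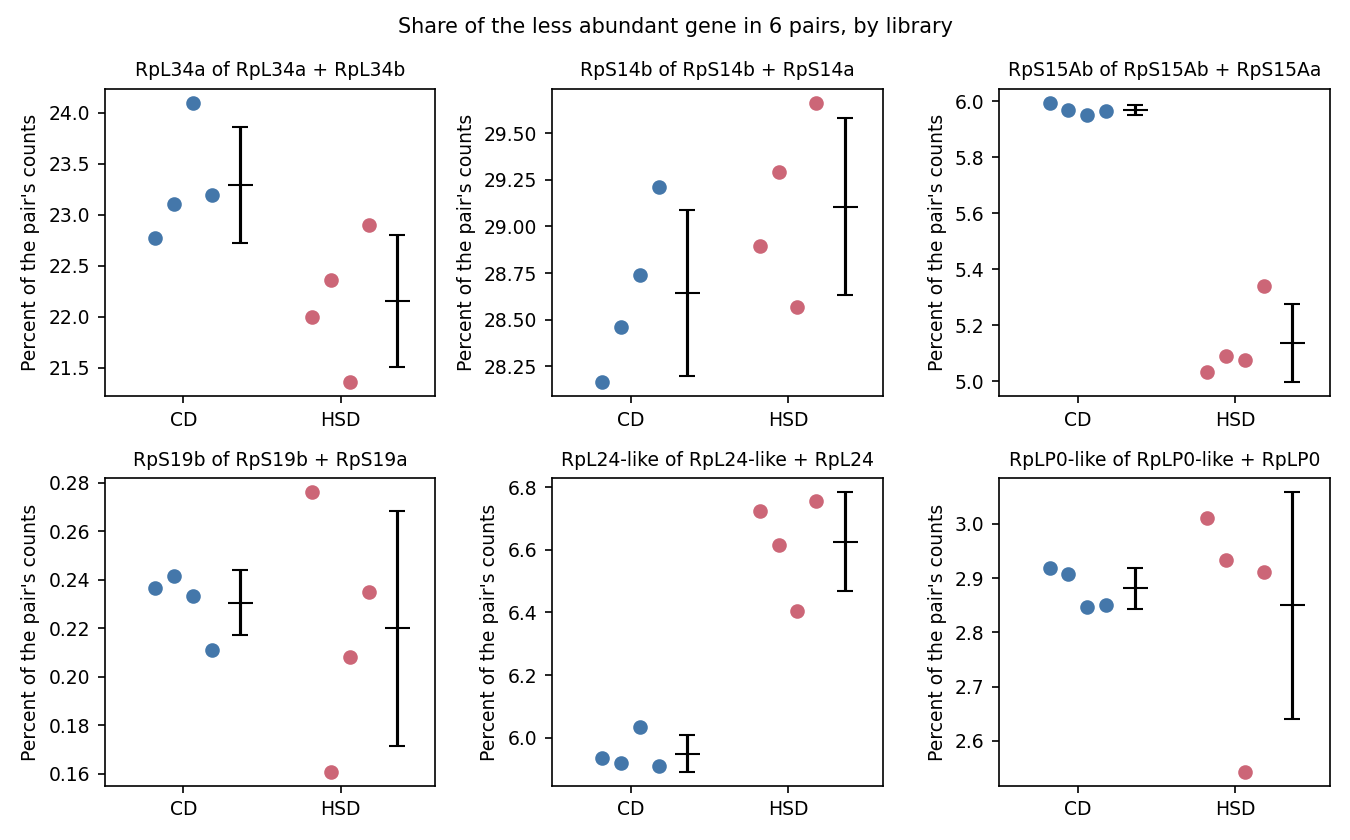
Share of the less abundant gene in the counts of its pair, in percent, for the 6 pairs with both genes tested; each point is a library in the order of its replicate number, and bars show the mean and SD of 4 libraries per diet. The diets do not overlap for RpS15Ab (lower on HSD) and RpL24-like (higher on HSD) and overlap in the other 4 pairs; the axes do not start at 0.

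Levels per kilobase of exon, the scale on which genes can be compared, spanned 12.2-fold among the 79 core genes on CD, and most of the proteins are known to enter the ribosome in equal numbers. The median was 1849 CPM per kilobase on CD and 2266 on HSD, and on CD it was 1849 for large and 1832 for small subunit genes. The highest levels were those of RpLP2 (4003 ± 355 on CD and 5221 ± 260.5 on HSD), RpL27A (3391 ± 301 and 4260.4 ± 204) and RpL41 (3306 ± 279 and 3934 ± 271; SD, n = 4), followed by RpL23 and RpLP1. On CD, RpL27A and RpL41 lay within each other's SD. RpLP1 and RpLP2 are present in more than a single copy per ribosome. The lowest core genes were RpL38 (327 ± 34.9 and 387 ± 55.1), RpL5 (631 ± 46.5 and 744 ± 38.4) and RpS9 (684 ± 59.2 and 815 ± 47.01), before RpL28, RpS21 and RpS29. The annotated exons of RpL5 add up to 3835 bases, the longest of the core genes, which lowers its level per kilobase, and 50.3% of the exonic length of RpS9 is shared with the antisense gene asRNA:CR45874. RpL28 ranked 76 of 79 by the total of its exons (1382 bases) and 66 by its longest transcript (887 bases), so its place depends on the length used.

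The members shared features that the rule did not use. Their exons had a median total length of 916 bases, against 2102 in the other genes tested, and their median 5′ untranslated region was 69 nt, against 149 nt. A small nucleolar RNA gene lay inside 29 of the 85 tested members (34.1%) and inside 61 of 7717 other genes (0.790%). RpS5a held 14 of them and RpS7 held 7. The genes were spread over the arms, with 17 on 2L, 19 on 2R, 14 on 3L, 19 on 3R, 15 on X and 1 on chromosome 4. By these features the diet change was divided as follows: 28 of 29 core genes with a small nucleolar RNA gene and 49 of 50 without were higher, with medians of 0.30 and 0.32, and the medians of the major arms lay between 0.29 and 0.33. Among all core genes 97.5% were higher, and among all genes tested 14.4%.

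Length and abundance were also set beside the change. Over the 79 core genes the log2 fold change had a Spearman's rho of -0.37 with exonic length, a description across genes that share libraries and are not independent. The other genes of up to 1266 bases, the shortest of 4 equal length classes of all tested genes, had a median of 0.05 with 12.9% higher, and held 70 of the 85 members by length. Of 92 other genes at 1000 CPM or above on average, 39 were higher (42.4%) and 8 lower, with a median of 0.17. The share of all genes that were higher was 14.4%, and the part of length and abundance in the members' rise was not tested.

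Other genes of ribosome production had lower medians than the members, a difference that was not tested. Of 28 genes listed for ribosome assembly, 4 were higher (14.3%, against 14.4% of all genes) and none lower, against 11.6% of all genes. Their median log2 fold change was 0.08. On scaling by library size alone 1 was higher (Non1), against 8.80% of all genes, and 5 were lower, against 40.3%. None was lower at unadjusted p, or with DESeq2 or limma-voom. DESeq2 called 4 higher, against 15.2% of all genes, and limma-voom 8, against 19.1%. Without CD replicate 1, edgeR called 7 higher, against 17.7%. Non1 stood at 497, 504, 479 and 522 CPM in the CD libraries and at 679, 694, 722 and 712 CPM in the HSD libraries. Non1, a GTPase of large subunit assembly, rose 1.403-fold (log2 0.49 ± 0.05 SE, adjusted p = 1.25e-05) without overlap. Ns2, a nucleostemin-like GTPase, rose 1.19-fold (log2 0.25 ± 0.04 SE, adjusted p = 0.000849), and Nle, an assembly factor, 1.15-fold (adjusted p = 0.0167, lost without CD replicate 3 or 4). Fib, the methyltransferase fibrillarin, rose 1.16-fold (adjusted p = 0.0347), with overlapping diets, and was not called in the absence of CD replicate 3, 4 or 5, or of HSD replicate 2, 3 or 4.

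Of 13 measured genes listed for RNA polymerases I and III, which make the ribosomal and transfer RNAs, 0 were higher and 1 was lower. Their median was -0.0047, and of all genes 14.4% were higher and 11.6% lower. At unadjusted p, edgeR gave 1 higher and 1 lower, and DESeq2 called 0 higher and 1 lower and limma-voom 2 of each. On scaling by library size alone 6 were lower, against 40.3% of all genes. The subunit called, Polr3E, fell by 0.18 on the log2 scale (adjusted p = 0.0377), without overlap between the diets, and was not called in the absence of CD replicate 1 or 3, or of HSD replicate 1, 2 or 3, or with upper quartile scaling. Of 11 elongation factors and proteins that sit on the ribosome, 4 were higher (36.4%, against 14.4% of all genes) and none lower. Their median was 0.12, and none was lower at unadjusted p, or with DESeq2 or limma-voom. DESeq2 called 5 higher, against 15.2% of all genes, and limma-voom 8, against 19.1%. Without CD replicate 1, edgeR called 7 higher, against 17.7%. Under library size alone 2 were higher (eEF1alpha1 and Rack1), against 8.80% of all genes, and 1 was lower, against 40.3%. eEF1alpha1 stood at 13925, 13602, 14035 and 13989 CPM in the CD libraries and at 16509.7, 17274, 16621 and 17195 CPM in the HSD libraries. This factor, which brings aminoacyl-tRNA to the ribosome, rose 1.22-fold (log2 0.28 ± 0.04 SE, adjusted p = 8.55e-05) without overlap. Rack1, a scaffold on the small subunit, rose 1.21-fold (log2 0.27 ± 0.05 SE, adjusted p = 0.00169), and Tctp and eEF5 rose 1.14-fold and 1.17-fold (adjusted p = 0.0157 and 0.0167). Tctp was not called without CD replicate 3, 4 or 5. The diets overlapped in eEF5, which was not called without CD replicate 3 or 5, or with HSD replicate 2 left out.

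Of 16 measured regulators of ribosomal protein genes and of their mRNAs, 3 were higher (18.8%) and 1 was lower. Of all genes tested, 14.4% were higher and 11.6% lower. Thor stood at 3.79, 4.74, 6.29 and 7.71 CPM in the CD libraries and at 44.3, 36.03, 50.3 and 50.2 CPM in the HSD libraries. Thor, the fly 4E-BP that binds eIF4E and restrains translation when TOR signalling is low, rose 8.004-fold (log2 3.001 ± 0.20 SE, adjusted p = 8.01e-06). REPTOR-BP, partner of a transcription factor that TOR holds back, rose 1.75-fold (log2 0.80 ± 0.09 SE, adjusted p = 2.7e-05). Max, the partner of Myc, rose 1.38-fold (log2 0.46 ± 0.07 SE, adjusted p = 0.000301). Mnt, which competes with Myc for Max, fell by 0.49 on the log2 scale (adjusted p = 0.0147), with overlapping diets (CD replicate 1 at 39.9 CPM, HSD replicate 2 at 40.5 CPM). Myc itself did not pass, with a log2 difference of 0.05 ± 0.20 SE, nor did S6k (0.02 ± 0.07 SE) or the TOP-mRNA binding protein larp (-0.03 ± 0.11 SE). These are levels of mRNA, and phosphorylation and protein were not measured.

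**Figure D5:**
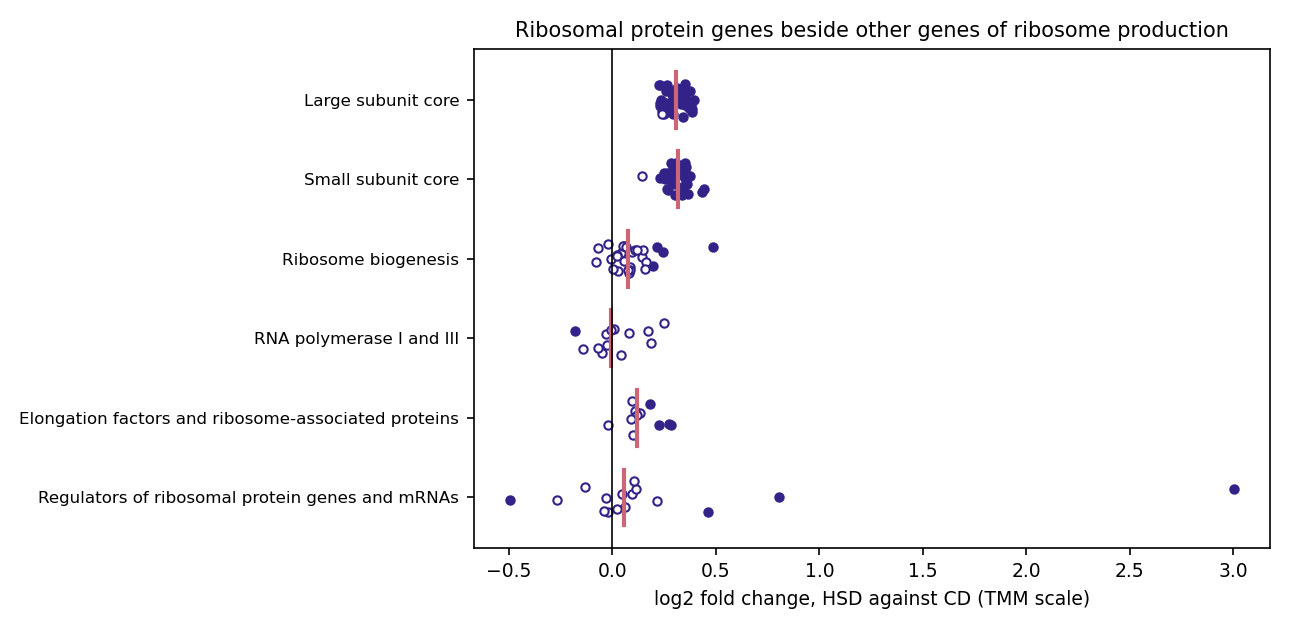
log2 fold change, HSD against CD on the TMM scale, of core ribosomal protein genes and of 4 lists of other genes of ribosome production. Each point is a gene, filled where edgeR's adjusted p was under 0.05, and the red line is the median of the list: 0.31 and 0.32 for the core genes, and 0.08, -0.0047, 0.12 and 0.05 for the other lists from top to bottom, whose medians are all negative on scaling by library size alone.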

How the data were processed

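Poly(A) RNA was sequenced from sorted larval hemocytes, 4 libraries on CD and 4 on HSD. The deposited table gives raw read counts, as whole numbers, for 11769 FlyBase identifiers. The submitters' processing notes name Trim Galore 0.6.7, STAR 2.7.10a, featureCounts and the build dm6. How strand and multiply mapped reads were handled is not given in the sources used here, so counts of close copies, overlapping exons and antisense genes are uncertain. Every row named a gene and 0 columns were left unused. Symbols, coordinates and exon lengths came from the Ensembl 115 annotation and its gene name table; 11698 identifiers matched a symbol, and the 71 without one held 0.790% of counts. No sequence table was used here, so no sequences are shown and shared stretches between copies were not examined.

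Counts were tested with edgeR 4.0.16 (R 4.3.3): filterByExpr at a minimum count of 10 (7844 genes, 3 scarce members left out), TMM, a robust quasi-likelihood fit with diet as the only term, and Benjamini-Hochberg adjustment. The common biological coefficient of variation (BCV) was 0.101. The SE of a log2 fold change was taken as its size over the root of F. Pair ratios were compared by exact permutation of libraries, as log2 of minor over major counts. Intervals are exact binomial at 95% and cover counting error only. The labels give 1 batch and do not say whether replicates were separate cultures, so p-values measure only the spread between these samples, which may be technical. No pair of libraries was identical or agreed within counting noise.

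Members, lists and tests were chosen with earlier results of these data known, and the groups by site on the ribosome after the values were seen. Named were all genes of the pairs, sta and RpS2, members not called, the 5 largest and 5 smallest log2 fold changes, the 5 smallest p, the 5 highest and 5 lowest levels per length, and up to 4 genes per list by p; other members named only with a group were chosen after their values were seen. The result of 1 gene that this rule names is not reported here, though the gene is part of the counts and medians. Alternatives were RLE, upper quartile, library-size and member-free scaling, no filter, 5 CPM in 4 libraries, DESeq2 1.42.0, limma-voom (limma 3.58.1), glmTreat at 1.1-fold, a threshold of 0.1, a replicate block, and leaving out libraries. The Python 3.11.15 step drew the plots with matplotlib 3.10.9.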

Additional observations from a re-analysis of the deposited data

Results flagged for a closer look

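In a group of 4 libraries, a value was marked where its gap to the nearest other library took up more of the group's range than Dixon's 95% critical value, which chance gives in about 1 of 20 groups. Of 146 groups examined, 8 were marked. Among members, CD replicate 1 stood above the other CD libraries in RpL10 (2699 CPM against 2234 to 2292), RpL21 (1856 against 1521 to 1557) and RpL15 (1847 against 1623 to 1644). The same library was high in Tctp (1262 CPM against 1139 to 1154) and Polr1C (30.4 against 25.8 to 26.4) and low in Polr3A (42.7 against 49.4 to 50.7). RpS10a was marked on each diet for its only count, in CD replicate 5 (0.0424 CPM) and in HSD replicate 1 (0.0462 CPM), with 0 in the other libraries.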

How the results depend on the processing

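In none of the alternatives was a member called lower. With RLE, upper quartile or member-free scaling, no filter, the 5 CPM filter and DESeq2, 81 members were higher, with limma-voom 83. On scaling by library size alone, 45 members were higher (25 large and 20 small subunit). The median log2 fold change of all genes was also lower under that scaling, at -0.17. Leaving out single libraries gave 73 to 83 members higher, 42 to 49 in the large and 31 to 34 in the small subunit, and 0 lower. The HSD minus CD difference in the members' share of counts was 1.52 percentage points (1.24 to 1.82 with a library left out; large subunit 0.885, 0.728 to 1.05; small subunit 0.631, 0.509 to 0.763) and 3.27 of the TMM-scaled library size. The large to small ratio differed by -0.0080 (-0.0128 to -0.0047). Of 860 values for the 43 named members, 753 kept their direction and call, 100 lost the call, 5 gained it and 2 changed sign, both uncalled and on library size alone (RpS3A to -0.0212 and RpS15Ab to -0.0557). Of these 43 members, 17 lost their call with library size alone. RpS9 lost its call without CD replicate 3 or 4 or HSD replicate 3 (adjusted p up to 0.0566). For the pairs, by exact permutation test, 0 ratios passed after adjustment and 2 unadjusted (RpS15Ab and RpL24-like). With a library left out their log2 ratio differences ran from -0.25 to -0.22 and from 0.16 to 0.18, and no exact test of 3 against 4 libraries can go below p = 0.0571. The uncalled difference for RpS19b/RpS19a (-0.09) ran from -0.212 to 0.0482 with a library left out, positive without HSD replicate 2, and was 0.0061 with the replicate block. That for RpLP0-like/RpLP0 (-0.02) ran from -0.0474 to 0.0359, positive without HSD replicate 3; the cause was not tested.

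The diets share replicate numbers 1, 3 and 4. Same-numbered libraries did not deviate together (correlations of -0.178, -0.091 and -0.214), and no library correlated best with its own number, so the numbers were not taken as pairs. With a replicate block over the numbers, 4 members were higher (RpL24-like, RpL22, RpS20 and RpS27, 2 large and 2 small subunit), against 7.51% of all genes. The members' median log2 fold change was 0.33. CD replicate 5 and HSD replicate 2 have no partner of the same number, so this fit takes the diet difference from numbers 1, 3 and 4 only. The part of this in the smaller count of calls was not tested. An exact sign-flip test of the pair ratios over 3 blocks cannot go below p = 0.25.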
